A study of Mus musculus with 18 samples.

Results

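The collagen gene family was followed in gp38+ stromal cells of the mouse salivary gland through an adenovirus infection. Its members were every gene whose mouse symbol has the form Col, a number, a and a number, and 44 of the 55401 gene identifiers counted met that rule. They comprised 11 fibrillar collagens, 8 basement membrane collagens (Col4a1 to Col4a6, Col15a1 and Col18a1) and 25 others. RNA was sequenced from cells that carry gp38 (podoplanin, a surface glycoprotein of fibroblasts), sorted by flow cytometry from wild-type Balb/c mice aged 8 to 12 weeks. The 18 libraries, 1 mouse each, formed 6 groups of 3: uninfected mice (hour 0, replicates 10 to 12), and mice at hour 3 (replicates 4 to 6), day 1 (13 to 15), day 2 (16 to 18), day 8 (1 to 3) and day 23 (7 to 9) after adenovirus 5 that cannot replicate was given through cannulated submandibular glands at 100000000 to 1000000000 plaque-forming units. No group was cannulated without virus, so infection and cannulation cannot be told apart in any comparison with hour 0.

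Collagens are proteins of 3 chains wound into a triple helix. Fibrillar types I, III and V form the cables that give connective tissue its strength, type IV makes the sheet-like network under epithelium and around vessels, and types XV and XVIII link that sheet to the tissue around it. Type VI forms beaded filaments beside basement membranes, types XII and XIV coat fibrils, type VII anchors epithelium to the matrix below, and type XVII is a transmembrane protein of epithelial hemidesmosomes. In a gland, fibroblasts and mural cells around vessels are main sources of most of these proteins.

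The stretches upstream of 4 loci are shown for orientation: Col15a1 and Col6a6 had the largest falls at day 1, Col8a1 had the largest rise, and Col4a4 and Col4a3 share 1 short interval from which both genes start. A relation between these bases and the changes in level was not tested. The sequences are from the RefSeq promoter table of build GRCm38.p6, written 5′ to 3′ on the strand named, and each ends at the base before the gene's start in RefSeq (Col15a1) or in GENCODE M21 (the other loci). Capitals mark GC boxes, the letters GGGCGG or their complement CCGCCC, to which Sp-family factors bind.
Col15a1 (chr4:47207762-47208011, plus strand): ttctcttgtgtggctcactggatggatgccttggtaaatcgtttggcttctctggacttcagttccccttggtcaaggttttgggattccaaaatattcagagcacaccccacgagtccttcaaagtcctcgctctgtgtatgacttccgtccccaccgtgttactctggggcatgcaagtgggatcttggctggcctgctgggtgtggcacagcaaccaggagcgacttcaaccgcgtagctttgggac
Col6a6 (chr9:105828161-105828335, minus strand): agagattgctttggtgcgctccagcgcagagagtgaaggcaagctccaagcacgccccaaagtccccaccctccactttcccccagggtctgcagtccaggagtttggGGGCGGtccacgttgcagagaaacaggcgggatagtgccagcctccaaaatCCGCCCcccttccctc
Col8a1 (chr16:57754738-57754987, minus strand): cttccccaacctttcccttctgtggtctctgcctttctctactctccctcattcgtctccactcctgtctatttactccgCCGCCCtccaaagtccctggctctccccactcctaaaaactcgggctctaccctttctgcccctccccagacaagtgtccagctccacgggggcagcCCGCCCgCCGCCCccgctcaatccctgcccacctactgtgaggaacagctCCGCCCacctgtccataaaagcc
Col4a4, with Col4a3 on the other side (chr1:82586850-82586920, minus strand): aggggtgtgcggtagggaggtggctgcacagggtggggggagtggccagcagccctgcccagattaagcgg

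The Col8a1 stretch held 4 GC boxes, the Col6a6 stretch held 2, and neither the Col15a1 stretch nor the interval of 71 bases between Col4a4 and Col4a3 held these letters. The table had 38 promoters for 35 of the 44 genes, and in their 250 upstream bases a GC box on either strand was present in 57.9%, against 32.7% of all 32851 promoters. A CCAAT box (CCAAT, either strand) was present in 34.2% of the collagen promoters and 33.8% of all, and an AP-1 site (TGANTCA, either strand) in 2.63% and 6.75%. The 4 stretches printed held neither of the last 2 motifs, so no capitals overlap them. A match is a run of letters and no evidence of binding.

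Libraries held 4398234 to 15234431 counts (median 10227904). The replicate numbers split them into 2 sets, 1 to 9 (hour 3, day 8, day 23) and 10 to 18 (hour 0, day 1, day 2). Reads on sensory receptor genes, used as a measure of background, averaged 1.36, 0.782 and 3.10 counts per kb of exon, scaled to libraries of 10000000 counts, at hour 0, day 1 and day 2. They averaged 0.0463, 0.0297 and 0.0226 at hour 3, day 8 and day 23. Set and time cannot be told apart where hour 3, day 8 or day 23 is compared with hour 0, whereas day 1 and day 2 share a set with hour 0. All 8 fibroblast markers examined (Pdgfra, Pdpn, Thy1, Dpt, Lum, Dcn, Pi16 and Vim) had counts in every library, with summed levels of 4007 to 4544 CPM at day 1, the lowest group, and 20655 to 25264 CPM at hour 3, the highest. Epithelial markers were also present, with summed levels of 355 to 1204 CPM at day 2, the lowest group, and 70086 to 221330.0 CPM at day 23, the highest, beside 29599 to 67122 CPM at hour 0. Here and below CPM is counts per 1000000 after TMM scaling, and a gene is said to have risen or fallen when its adjusted p in edgeR's quasi-likelihood test over 27525 genes was under 0.05.

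The share of counts on collagen genes was lowest at day 1. The 44 genes took 5.24% ± 0.555 of all counts at hour 0 (means ± SD, n = 3 for each group), then 4.08% ± 0.261 at hour 3 and 2.35% ± 0.511 at day 1. The share was 4.00% ± 0.938 by day 2, with day 8 at 4.04% ± 0.578 and day 23 at 4.37% ± 1.35. The 3 day 1 libraries, at 2.40%, 1.81% and 2.83%, all lay below the 3 hour 0 libraries, at 5.84%, 5.15% and 4.74%, a ratio of means of 0.448. The two-sided exact permutation test gave p = 0.1, the smallest that 3 against 3 allows, and 0.2 after adjustment over 8 such tests, so this design cannot pass a threshold of 0.05. Day 23 was the most variable group, with 5.77%, 3.07% and 4.27% in its 3 libraries.

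The make-up of the collagen signal by class, which needs no scaling between libraries, differed between hour 3 and the next 2 times. Per kb of exon, basement membrane collagens made up 41.2% ± 1.94 of the signal at hour 3 and 30.0% ± 1.61 at hour 0 (mean ± SD, n = 3 each), with no overlap between the groups, though they lie in different sets of replicate numbers. At day 1 their share was 23.1% ± 1.85, and day 2 had the lowest of the 6 groups, 15.6% ± 1.16. The later groups had 24.4% ± 1.06 (day 8) and 24.4% ± 1.96 (day 23). Fibrillar collagens took the largest share at day 2, 69.2% ± 1.83, against 47.3% ± 0.747 at hour 0. The other collagens held 14.4% ± 2.41 at day 1, 15.2% ± 0.811 at day 2 and 22.7% ± 0.984 at hour 0.

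**Figure D1:**
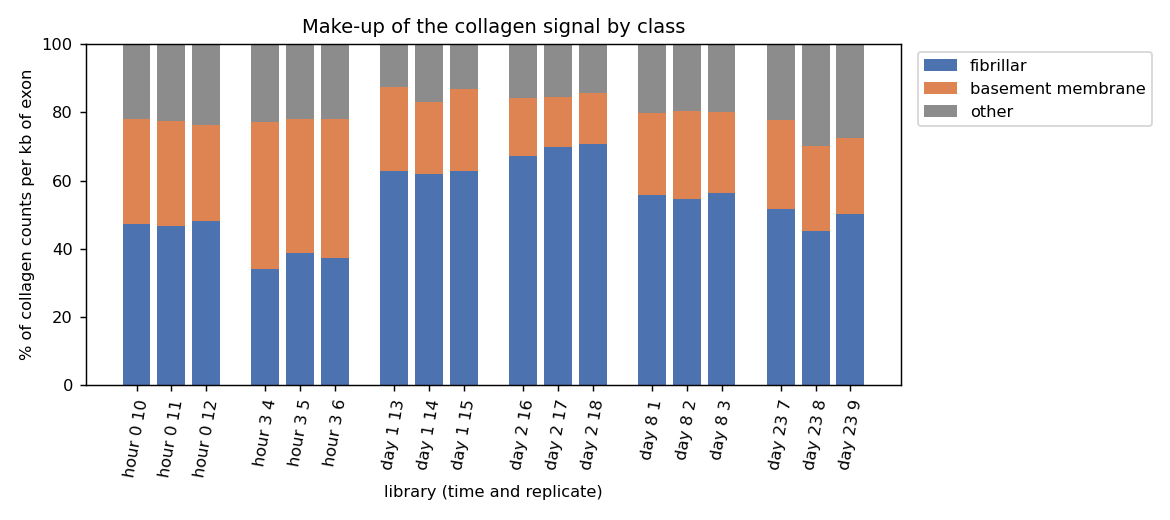
Percent of collagen counts per kb of exon on fibrillar, basement membrane and other collagens, 1 stacked bar per library, in order of time. The basement membrane part is widest at hour 3 (mean 41.2%) and narrowest at day 2 (mean 15.6%).

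Single genes carried much of that change. Col4a1, a chain of the type IV network, made up 21.2% ± 1.25 of the collagen signal per kb at hour 3 and 11.1% ± 1.38 at hour 0. Col15a1 made up 0.511% ± 0.0702 at day 1 and 11.0% ± 0.527 at hour 0. Col3a1, the type III fibril chain, was the most abundant member per kb at hour 0, with 16.2% ± 0.618, and Col1a1, the main type I chain, came next with 14.1% ± 0.198. Col4a1 and Col15a1 followed with means of 11.1% and 11.0%, which did not differ beyond their spread.

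Most collagens fell by day 1. Of 44 members 29 fell and 3 rose relative to hour 0, where 12.8% of all genes tested fell and 9.67% rose. The median log2 fold change was -1.34 over the members and -0.41 over all genes tested. Falls took in 8 of 11 fibrillar, 7 of 8 basement membrane and 14 of 25 other members. The libraries of the groups did not overlap for 30 members that were lower and 3 that were higher, against 20.4% and 12.8% of all genes tested. With scaling by library totals alone, 28 fell and 3 rose, where 11.1% of all genes fell and 10.9% rose.

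**Figure D2:**
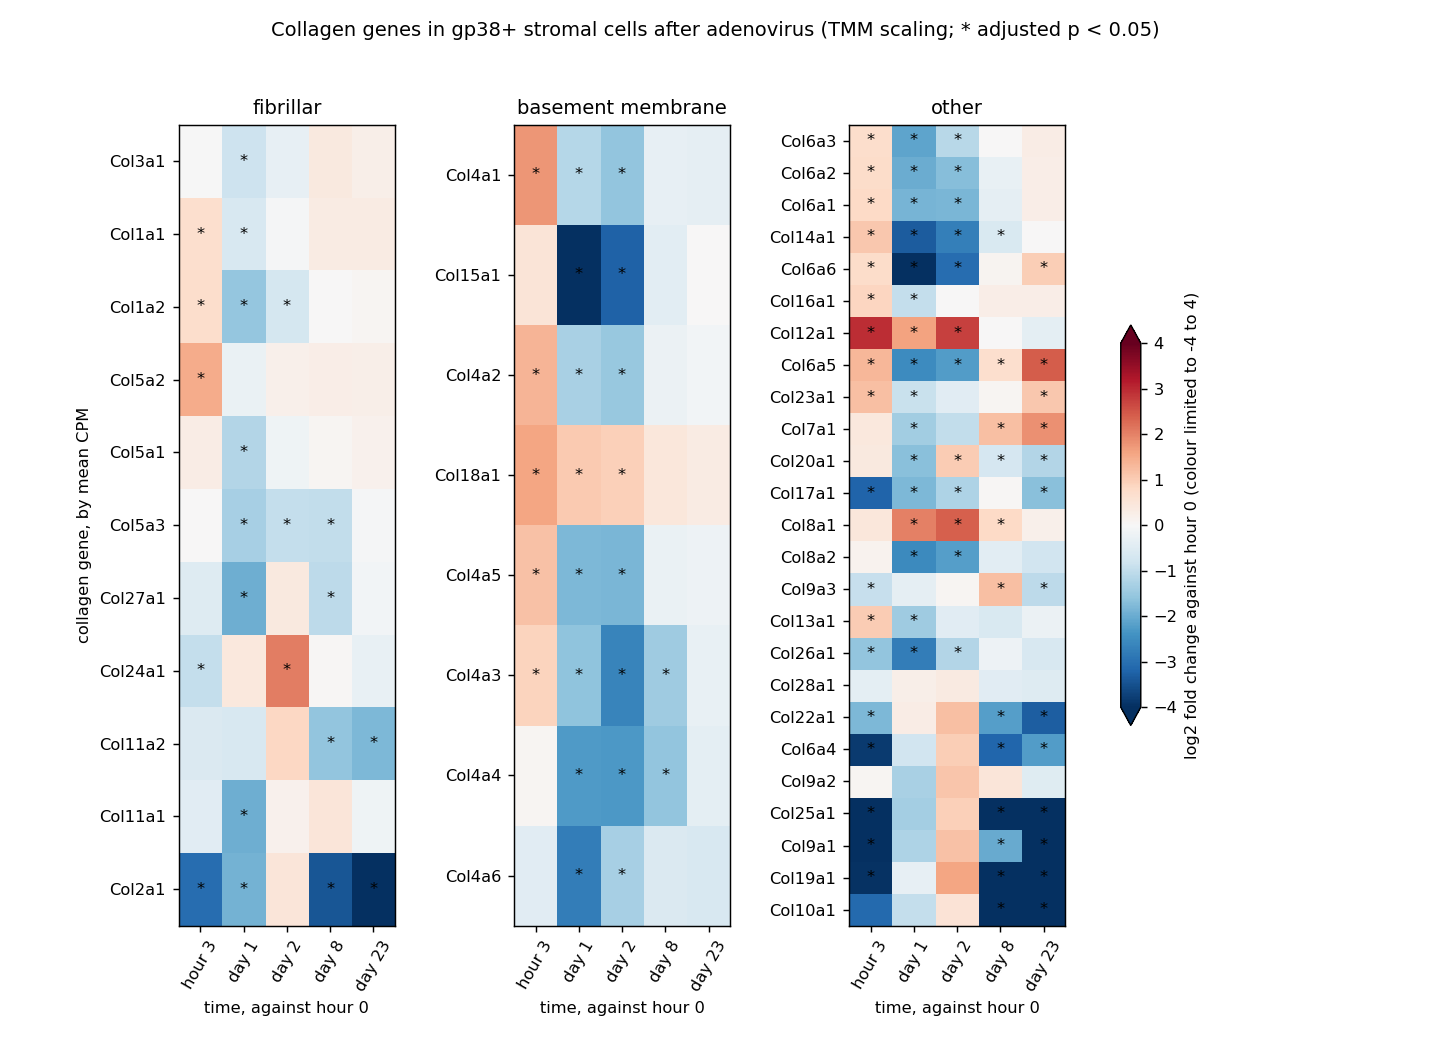
Log2 fold change against hour 0 of the 44 collagen genes (TMM scaling) at hour 3, day 1, day 2, day 8 and day 23, by class and ordered by mean CPM; colours are limited to -4 and 4 and a star marks an adjusted p under 0.05. Stars for falls fill the day 1 column, 29 of 44, and Col12a1 and Col8a1 stand out as rises at day 1 and day 2.

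The median log2 fold change at day 1 was -1.17 over fibrillar, -1.71 over basement membrane and -1.36 over other members. Among fibrillar collagens Col1a2, the other type I chain, had 1640.4, 1704 and 2119.7 CPM at day 1, against 5865, 4865 and 5323 CPM at hour 0, with no overlap (log2 fold change -1.55 ± 0.22 (SE), adjusted p 2.26e-06). Col3a1 had 5496, 3788 and 5491 CPM at day 1, against 9577, 7955 and 8493 CPM at hour 0 (log2 fold change -0.82 ± 0.24 (SE), adjusted p 0.0122). Col1a1 had 3288, 2300.3 and 4122 CPM at day 1, against 5545, 4784 and 4860.1 CPM at hour 0, again without overlap. Its fall was the least secure of these: log2 fold change -0.65 ± 0.22 (SE), adjusted p 0.0297, and it missed the threshold when day 1 replicate 13 or 14 or hour 0 replicate 10 was left out (adjusted p 0.0625 to 0.114) and under library totals (log2 fold change -0.56, adjusted p 0.0941). The Col1a1 call was also lost in the fit of the 9 libraries of replicates 10 to 18 alone (log2 fold change -0.51, adjusted p 0.114) and in that of the 2 groups alone (log2 fold change -0.56, adjusted p 0.0622). Col5a2, the chain of type V that assembles with Col5a1, was not called at day 1, with 1202, 655 and 1616 CPM at day 1 and 1463, 1401 and 1309 CPM at hour 0, while Col5a1 fell (log2 fold change -1.17 ± 0.22 (SE), adjusted p 1.37e-04). The day 1 values of Col5a2 lay on both sides of those at hour 0.

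Of the 8 basement membrane collagens 7 fell, and Col15a1 had the deepest fall of all members. Col15a1, which lies at the outer face of basement membranes, had 64.7, 54.6 and 101 CPM at day 1, against 4113, 3526 and 3807 CPM at hour 0 (log2 fold change -5.70 ± 0.27 (SE), adjusted p 3.84e-15). Every day 1 library was far below every hour 0 library, a 51.9-fold lower mean. Col4a1 had 2319, 1102 and 2772 CPM at day 1, against 5373, 4609.5 and 3663 CPM at hour 0 (log2 fold change -1.14 ± 0.25 (SE), adjusted p 8.41e-04). Col4a2, its partner chain, had 1052, 525 and 1233 CPM at day 1, against 2653, 2383 and 1835 CPM at hour 0 (log2 fold change -1.29 ± 0.23 (SE), adjusted p 6.87e-05). The groups did not overlap for either chain, and day 1 replicate 14 was the lowest library for both. Col4a3 and Col4a4, chains of the network found in kidney glomeruli and other specialised membranes, fell too. Col4a4 had 30.1, 16.5 and 21.1 CPM at day 1, against 116, 101 and 110.2 CPM at hour 0, a log2 fold change of -2.27, and Col4a3 had a log2 fold change of -1.61. Col4a5 and Col4a6 fell as well, with log2 fold changes of -1.80 and -2.76. Col18a1, whose end fragment is endostatin, went against its class: it had 541, 710.1 and 514 CPM at day 1, against 299, 263 and 293 CPM at hour 0 (log2 fold change 1.05 ± 0.21 (SE), adjusted p 2.66e-04).

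Among the other members Col6a6 and Col14a1 had the deepest falls. Col6a6, a type VI chain that can take the place of Col6a3, had 27.9, 39.3 and 42.7 CPM at day 1, against 720.0, 752 and 798 CPM at hour 0 (log2 fold change -4.37 ± 0.22 (SE), adjusted p 6.11e-15). Col14a1 had 96.7, 98.8 and 104 CPM at day 1, against 1075, 872 and 1092 CPM at hour 0 (log2 fold change -3.34 ± 0.22 (SE), adjusted p 1.70e-12). Among the common type VI chains Col6a1 had 479, 459 and 557 CPM at day 1, against 1967, 1714 and 1737 CPM at hour 0 (log2 fold change -1.86). Col6a3 had 492, 608 and 794 CPM at day 1, against 3035, 2582 and 2608 CPM at hour 0 (log2 fold change -2.12). Col6a2, the third common chain, fell as well, with 516, 453 and 616 CPM at day 1, against 2206, 1976 and 2157 CPM at hour 0. None of the 3 genes had overlapping groups. Col26a1, a less abundant collagen, had 0.967, 3.66 and 1.72 CPM at day 1, against 14.7, 19.3 and 9.60 CPM at hour 0 (log2 fold change -2.78 ± 0.40 (SE), adjusted p 3.01e-06). Of these 25 members 2 rose, Col12a1 and Col8a1. Col12a1 had 266, 114 and 317 CPM at day 1, against 69.1, 94.8 and 64.3 CPM at hour 0 (log2 fold change 1.61 ± 0.29 (SE), adjusted p 8.30e-05). Col8a1, a short-chain collagen of vessel walls and the eye, had 41.7, 12.9 and 36.1 CPM at day 1, against 5.22, 6.00 and 11.3 CPM at hour 0 (log2 fold change 2.00 ± 0.33 (SE), adjusted p 2.28e-05). For both genes the groups did not overlap, though day 1 replicate 14 was the lowest day 1 library for each.

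**Figure D3:**
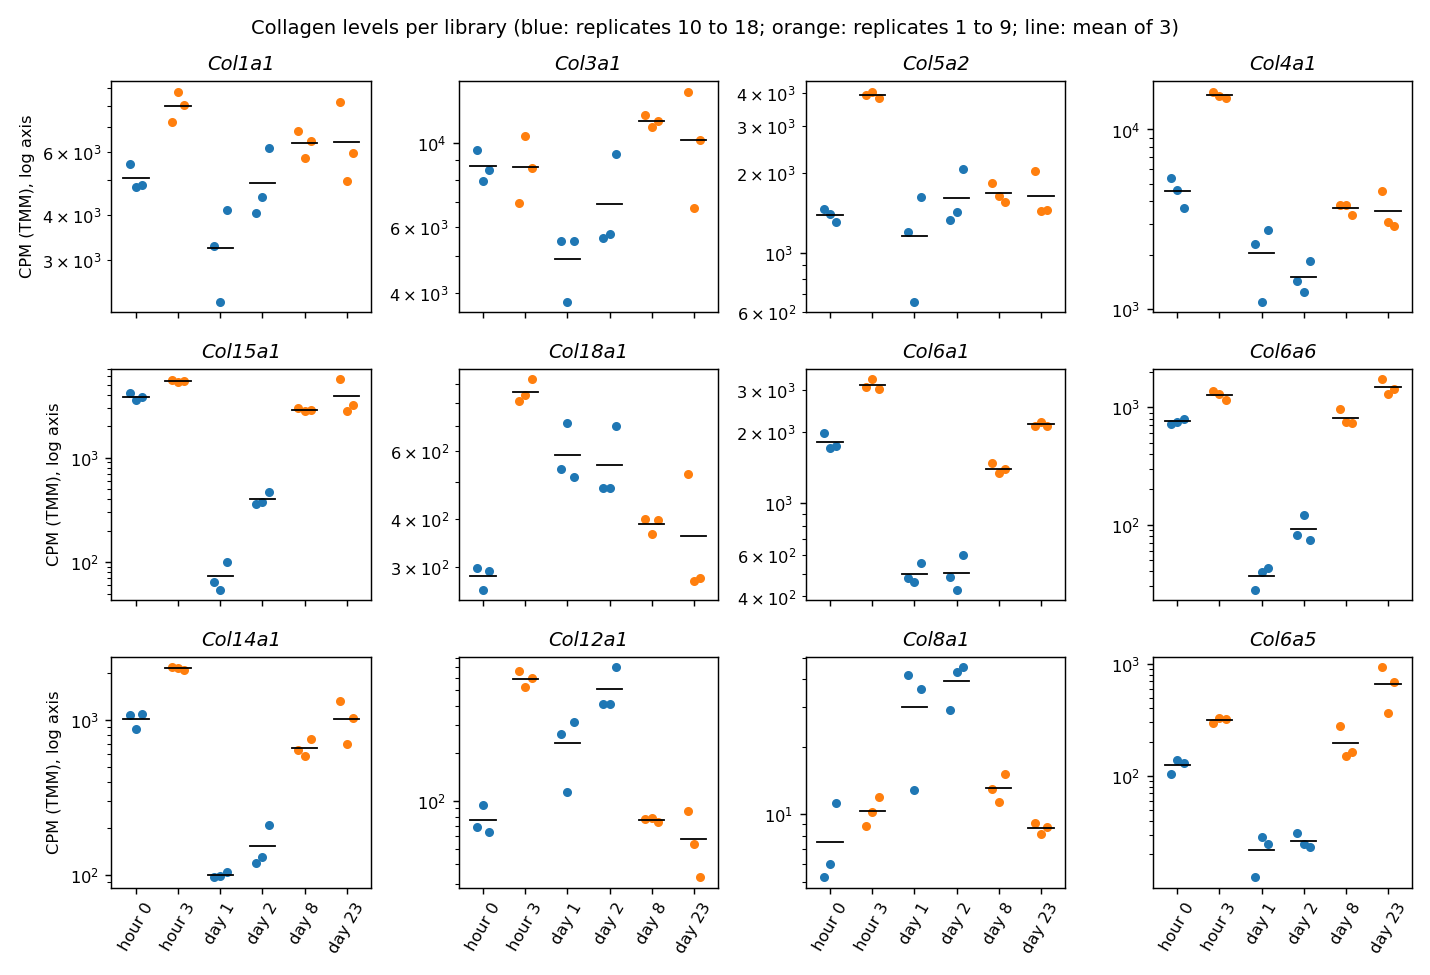
CPM (TMM) on a log axis of 12 collagen genes in each of the 18 libraries, by time; points are single libraries, the line is the mean of 3, and colour marks the 2 sets of replicate numbers. Col15a1, Col6a6 and Col14a1 lie far below hour 0 at day 1 and still below it at day 2, while Col12a1 and Col8a1 lie above hour 0 at both times.

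Markers of other cells moved in the same comparison. At day 1, 8 of 10 mural and smooth muscle markers fell and 2 rose, with summed levels of 134 to 147 CPM at day 1 and 1188 to 1656 CPM at hour 0. All 7 glial markers fell, with summed levels of 29.0 to 30.7 CPM at day 1 and 172 to 198 CPM at hour 0, and 6 of 9 epithelial markers fell with none rising, at 2376 to 3128 CPM and 29599 to 67122 CPM. Of 8 fibroblast markers 6 fell and 1 rose, at 4007 to 4544 CPM at day 1 and 7499 to 8981 CPM at hour 0. None of these lists had a defining marker at 0 in either group. Of 9 blood endothelial markers tested 3 fell and 1 rose, while their sum was higher at day 1 (378 to 544 CPM) than at hour 0 (261 to 315 CPM). Cldn5, also in that list of 10, had 0 counts in both groups. The part of these cell types in the collagen changes was not tested, and in bulk samples fewer cells of a type and less RNA per cell cannot be told apart.

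At day 2 most basement membrane collagens were lower than at hour 0, and most fibrillar collagens were not called. Against hour 0, 18 of 44 members fell and 5 rose, where 9.63% of all genes tested fell and 5.12% rose, and the medians were -0.25 over the members and 0.29 over all genes. Under library totals 13 fell and 5 rose, where 4.64% of all genes fell and 9.29% rose. Falls took in 7 of 8 basement membrane members but 2 of 11 fibrillar ones, Col1a2 and Col5a3, and 9 of 25 others. The comparisons of day 1 and day 2 use the same hour 0 libraries. At day 2, 5 of 10 mural markers fell and 1 rose (summed levels 243 to 375 CPM at day 2 and 1188 to 1656 CPM at hour 0), and 7 of 9 epithelial markers fell. Of 8 fibroblast markers 5 fell and 2 rose, while glial markers summed to 185 to 254 CPM at day 2 and 172 to 198 CPM at hour 0. The part of these cells was not tested.

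Col1a1 had 4064, 4497 and 6128 CPM at day 2 and 5545, 4784 and 4860.1 CPM at hour 0, with overlapping groups. Col3a1 had 5598, 5721 and 9384 CPM at day 2 and 9577, 7955 and 8493 CPM at hour 0, also overlapping, and neither was called. Col1a2 had 2523, 3058 and 4376 CPM at day 2 and 5865, 4865 and 5323 CPM at hour 0, and its call (log2 fold change -0.69 ± 0.22 (SE), adjusted p 0.0277) was lost under library totals (log2 fold change -0.32, adjusted p 0.414) and when replicate 10, 12, 16 or 17 was left out (adjusted p 0.0572 to 0.168). The Col1a2 call was also lost with DESeq2 (adjusted p 0.0717), and in edgeR with DESeq2 size factors (adjusted p 0.156), with a minimum of 5 CPM in 3 libraries (adjusted p 0.0606) and with the background rate subtracted (adjusted p 0.0649). Col5a3, another type V chain, was lower in every fit that left out a library (log2 fold change -0.97 ± 0.25 (SE), adjusted p 0.00545), and under library totals it missed the threshold (log2 fold change -0.61, adjusted p 0.113).

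Basement membrane chains stayed low at day 2. Col15a1 had 360.0, 379 and 473 CPM at day 2, against 4113, 3526 and 3807 CPM at hour 0 (log2 fold change -3.24 ± 0.24 (SE), adjusted p 4.47e-11). Col4a1 had 1431, 1248 and 1864 CPM at day 2, against 5373, 4609.5 and 3663 CPM at hour 0 (log2 fold change -1.59 ± 0.25 (SE), adjusted p 2.08e-05). Col4a3 had 20.6, 12.6 and 15.6 CPM at day 2, against 114, 105 and 84.1 CPM at hour 0 (log2 fold change -2.63 ± 0.22 (SE), adjusted p 3.27e-10). All day 2 libraries were below all hour 0 libraries for these 3 genes. Col6a6 had 81.7, 119.7 and 74.5 CPM and Col14a1 had 119.7, 131 and 209 CPM at day 2, with log2 fold changes of -3.04 and -2.72.

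Of the 5 rises at day 2 those of Col12a1 and Col8a1 were the largest. Col12a1 had 408, 407 and 699.8 CPM at day 2, against 69.1, 94.8 and 64.3 CPM at hour 0 (log2 fold change 2.73 ± 0.30 (SE), adjusted p 5.97e-08), and Col8a1 had 29.1, 43.2 and 45.5 CPM at day 2, against 5.22, 6.00 and 11.3 CPM at hour 0 (log2 fold change 2.38 ± 0.33 (SE), adjusted p 3.20e-06). Col18a1 was also higher (log2 fold change 0.96 ± 0.21 (SE), adjusted p 0.00106). Col24a1, a minor fibrillar collagen, had 26.1, 33.4 and 20.2 CPM at day 2, against 3.48, 10.3 and 5.63 CPM at hour 0 (log2 fold change 2.04 ± 0.38 (SE), adjusted p 2.18e-04). Col20a1, a fibril-associated type with little known about it, had 71.1, 95.3 and 77.4 CPM at day 2, against 45.5, 43.5 and 31.6 CPM at hour 0 (log2 fold change 1.02 ± 0.24 (SE), adjusted p 0.00321). Its annotation shares 79 exon bases with another gene on the same strand (1828 counts in all), so its counts are uncertain.

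Set directly against day 1, day 2 had 20 higher and 1 lower members, where 12% of all genes tested rose and 11.2% fell. The median was 0.89 over the members and 0.78 over all genes tested, so the members' median was close to that of all genes. Rises took in 8 of 11 fibrillar, 2 of 8 basement membrane and 10 of 25 other members, and the basement membrane median was -0.06. The background rate was also higher at day 2 (3.10 counts per kb) than at day 1 (0.782). Col25a1 and Col9a1, among the rises, had 2.26 and 3.90 times that rate at day 1 and 3.59 and 6.48 times at day 2. With the background rate subtracted, both calls were lost (edgeR adjusted p 0.0608 and 0.0551). Col20a1, whose counts are uncertain, rose the furthest (log2 fold change 2.69). It had 71.1, 95.3 and 77.4 CPM at day 2, against 12.2, 13.7 and 11.9 CPM at day 1. Col15a1 rose (log2 fold change 2.46 ± 0.24 (SE), adjusted p 3.16e-08) although it stayed under hour 0, and Col4a3 was the single fall (log2 fold change -1.02 ± 0.21 (SE), adjusted p 0.00107). The count rested partly on day 2 replicate 18: without it 13 members were called in all, against 21 with it, when 23.2% of all genes were called. In this comparison 6 of 7 glial markers rose (185 to 254 CPM at day 2 and 29.0 to 30.7 CPM at day 1) and 7 of 10 mural markers rose (243 to 375 CPM and 134 to 147 CPM), with no fall in either list. Of 11 macrophage and leukocyte markers 5 rose, 4 of 9 epithelial markers fell, and of 8 fibroblast markers 3 rose and 2 fell. Their part in the collagen changes was not tested.

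At hour 3 the direction of most collagens depended on the scaling. Under TMM 18 of 44 rose and 10 fell relative to hour 0, where 16.9% of all genes tested rose and 43.1% fell, and the medians were 0.35 over the members and -1.41 over all genes tested. Under library totals 2 rose and 27 fell, where 5.41% of genes rose and 70.8% fell, and the medians were -0.84 and -2.54. Between the scalings the median of all genes moved by about as much as that of the members. Set and time cannot be told apart here. Of 8 fibroblast markers 7 rose under TMM, with summed levels of 20655 to 25264 CPM at hour 3 and 7499 to 8981 CPM at hour 0. Also under TMM, 4 of 9 blood endothelial markers tested fell and 1 rose, though their sum was higher at hour 3 (453 to 622 CPM) than at hour 0 (261 to 315 CPM). Of 10 mural markers 4 fell and 2 rose. All 4 adipocyte markers fell, from summed levels of only 3.40 to 5.80 CPM at hour 0. The part of these cells in the result was not tested.

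Col12a1 and Col4a1 rose at hour 3 under both scalings. Col12a1 had 656, 520.4 and 596 CPM at hour 3, against 69.1, 94.8 and 64.3 CPM at hour 0 (log2 fold change 2.96 ± 0.30 (SE), adjusted p 4.29e-09; under library totals 1.77). Col4a1 had 16245, 15351 and 14973 CPM at hour 3, against 5373, 4609.5 and 3663 CPM at hour 0 (log2 fold change 1.77 ± 0.25 (SE), adjusted p 1.42e-06; under library totals 0.59). All hour 3 libraries were above all hour 0 libraries for both genes. Col5a2 had 3924, 4037 and 3823 CPM at hour 3, against 1463, 1401 and 1309 CPM at hour 0, and rose under TMM (log2 fold change 1.498 ± 0.23 (SE), adjusted p 5.32e-06) but not under library totals (log2 fold change 0.32, adjusted p 0.224). Col18a1 did the same, at log2 fold change 1.59 ± 0.21 (SE), adjusted p 3.74e-07 and, under library totals, log2 fold change 0.41, adjusted p 0.0928. Col17a1 fell under both, with 6.52, 5.27 and 10.3 CPM at hour 3, against 75.5, 64.3 and 64.3 CPM at hour 0 (log2 fold change -3.20 ± 0.40 (SE), adjusted p 1.38e-07; under library totals -4.38). Col17a1 is an epithelial collagen, and 4 of 9 epithelial markers rose and 2 fell, with summed levels of 69141 to 112228 CPM at hour 3 and 29599 to 67122 CPM at hour 0. Col26a1 fell as well, with 4.17, 3.82 and 6.43 CPM at hour 3, against 14.7, 19.3 and 9.60 CPM at hour 0. The 10 members that fell at hour 3 under TMM also fell under library totals. That scaling lowered the median of all genes from -1.41 to -2.54, so this agreement adds no support. Of the 10, Col19a1, Col22a1, Col24a1, Col25a1, Col2a1, Col6a4 and Col9a1 had hour 0 counts of 1.97 to 7.88 times the background rate. That rate averaged 1.36 counts per kb at hour 0 and 0.0463 at hour 3.

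Later times could be compared with hour 3 inside 1 set of replicate numbers. At day 8, 20 of 44 members were lower and 3 higher than at hour 3, where 14.1% of all genes tested fell and 16.5% rose, and the median was -0.66 over the members, -0.62 with groups at 0 counts set at their bound, and 0 over all genes. Under library totals 7 fell and 9 rose, where 6.59% of all genes fell and 29.8% rose. Of 8 basement membrane members 7 fell, Col4a3 the furthest (log2 fold change -2.33 ± 0.21 (SE), adjusted p 4.66e-10). Col4a1 had 3804, 3798 and 3343 CPM at day 8, against 16245, 15351 and 14973 CPM at hour 3 (log2 fold change -2.09 ± 0.25 (SE), adjusted p 1.19e-07; under library totals -1.31). Col12a1 had 77.2, 78.8 and 73.7 CPM at day 8, against 656, 520.4 and 596 CPM at hour 3 (log2 fold change -2.95 ± 0.30 (SE), adjusted p 5.42e-09; under library totals -2.17). For both genes every day 8 library was below every hour 3 library. Col17a1 had 75.5, 78.7 and 57.2 CPM at day 8, against 6.52, 5.27 and 10.3 CPM at hour 3 (log2 fold change 3.26 ± 0.40 (SE), adjusted p 1.23e-07). Col9a3, whose counts are uncertain for a reason given below, had 26.2, 22.6 and 17.7 CPM at day 8. It had 7.04, 2.90 and 5.53 CPM at hour 3 and 9.48, 11.8 and 7.94 CPM at hour 0, and was called as higher at day 8 against both. In this comparison 6 of 9 epithelial markers rose, with summed levels of 45148 to 135055 CPM at day 8 and 69141 to 112228 CPM at hour 3, and all 8 fibroblast markers fell, at 4668 to 5654 CPM and 20655 to 25264 CPM. Of 9 blood endothelial markers tested 7 rose and 1 fell, and of 10 mural markers 6 rose and 2 fell. The sums of both lists were nonetheless lower at day 8. They were 290 to 329 CPM against 453 to 622 CPM (endothelial) and 1143 to 1343 CPM against 2108 to 2491 CPM (mural). Of 11 macrophage and leukocyte markers 6 rose and 3 fell. Their part in the collagen changes was not tested.

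Against hour 0, the most abundant fibrillar chains were not called at day 8 or day 23. Col1a1 had 6856, 5743 and 6425 CPM at day 8 and 8232, 4968 and 5949 CPM at day 23, against 5545, 4784 and 4860.1 CPM at hour 0. Col3a1 had 11916, 11071 and 11476 CPM at day 8 and 13723, 6725 and 10201 CPM at day 23, against 9577, 7955 and 8493 CPM at hour 0. All day 8 libraries were above all hour 0 libraries for both genes, while those of day 23 overlapped hour 0. At day 8, 14 of 44 members fell and 4 rose, where 32.7% of all genes tested fell and 11.2% rose, with medians of -0.27 over the members and -0.68 over all genes. At day 23, 11 fell and 4 rose, where 25.4% of all genes fell and 8.51% rose, with medians of -0.22 and -0.53. These shares of falls lie near the background. The falls at day 8 included Col4a3 (log2 fold change -1.44 ± 0.21 (SE), adjusted p 1.03e-05) and Col4a4 (log2 fold change -1.58 ± 0.22 (SE), adjusted p 9.10e-06), and most of the others were of members with few counts, such as Col2a1, Col22a1 and Col25a1. The more abundant Col5a3, Col14a1 and Col27a1 fell too, without overlap. Their means were 608, 660 and 127 CPM at day 8, against 1204, 1013 and 263 CPM at hour 0. The Col14a1 call was lost in some fits, such as that without day 8 replicate 1 (edgeR adjusted p 0.0562). Under library totals 22 fell and 2 rose at day 8, where 43.2% of all genes fell and 4.97% rose, and 19 fell and 4 rose at day 23, where 39.7% fell and 2.55% rose. Both comparisons cross the 2 sets of replicate numbers. Markers of other cells differed in the same comparisons. At day 8, 6 of 9 epithelial markers rose and none fell, with summed levels of 45148 to 135055 CPM at day 8 and 29599 to 67122 CPM at hour 0. Of 11 macrophage and leukocyte markers 6 rose and 1 fell (148 to 189.9 CPM at day 8 and 22.1 to 36.6 CPM at hour 0), 4 of 9 blood endothelial markers tested rose and 1 fell, 4 of 7 glial markers fell and 1 rose, and 3 of 8 fibroblast markers fell. Their part in the collagen changes was not tested.

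The 4 members that rose at day 23 were Col6a5, Col6a6, Col23a1 and Col7a1. Col6a5, another chain that can replace Col6a3, had 935, 365 and 692 CPM at day 23, against 103, 139.8 and 131 CPM at hour 0 (log2 fold change 2.41 ± 0.28 (SE), adjusted p 1.24e-06; under library totals 2.00). Col6a6 had 1728, 1306 and 1434 CPM at day 23, against 720.0, 752 and 798 CPM at hour 0 (log2 fold change 0.98 ± 0.19 (SE), adjusted p 7.74e-04; under library totals 0.54). Col23a1, a transmembrane collagen, had 190.3, 159 and 140.4 CPM at day 23, against 75.5, 75.6 and 78.8 CPM at hour 0 (log2 fold change 1.09 ± 0.20 (SE), adjusted p 4.12e-04; under library totals 0.65). Day 23 libraries were all above hour 0 libraries for these 3 genes. Col7a1 had 62.8, 391 and 227 CPM at day 23, with 1 of its 3 libraries inside the hour 0 range, against 42.3, 71.7 and 76.6 CPM at hour 0 (log2 fold change 1.84 ± 0.37 (SE), adjusted p 9.48e-04). At day 8 Col7a1 had 134, 173 and 132 CPM (log2 fold change 1.20 ± 0.36 (SE), adjusted p 0.0111), a call lost without day 8 replicate 2 (adjusted p 0.0609) and with DESeq2 (adjusted p 0.0660). At day 23, 6 of 9 epithelial markers rose and none fell, with summed levels of 70086 to 221330.0 CPM at day 23 and 29599 to 67122 CPM at hour 0, and 4 of 11 macrophage and leukocyte markers rose. Of 7 glial markers 5 fell and 1 rose, of 10 mural markers 4 fell and 1 rose, and none of the 8 fibroblast markers was called. Col17a1, an epithelial collagen, and Col20a1 were among the falls at day 23. Col17a1 had 7.85, 39.3 and 14.7 CPM at day 23, against 75.5, 64.3 and 64.3 CPM at hour 0. Col20a1 had 15.3, 11.4 and 28.4 CPM at day 23, against 45.5, 43.5 and 31.6 CPM at hour 0. The part of these cell types in the rises and falls, those of the epithelial collagens Col7a1 and Col17a1 included, was not tested.

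Between day 8 and day 23, inside 1 set of replicate numbers, 8 members rose and 3 fell, where 2.25% of all genes tested rose and 3.08% fell, and the medians were -0.02 and 0. Col6a5 had 935, 365 and 692 CPM at day 23, against 279, 150.0 and 164 CPM at day 8 (log2 fold change 1.75 ± 0.27 (SE), adjusted p 2.44e-04). Col4a3 (log2 fold change 1.14 ± 0.21 (SE), adjusted p 0.00111) and Col4a4 (log2 fold change 1.20 ± 0.22 (SE), adjusted p 0.00147) both rose. Col9a3, a chain of fibril-associated type IX, had 3.92, 5.24 and 4.97 CPM at day 23, against 26.2, 22.6 and 17.7 CPM at day 8 (log2 fold change -2.22 ± 0.32 (SE), adjusted p 1.01e-04). Its annotation shares 234 exon bases with a gene on the opposite strand, and the strand setting is not given in the sources used here, so its counts are uncertain. The 11 calls, beside 5.32% of all genes called, came down to 7 without day 8 replicate 2, and to 7 in a fit of these 2 groups alone, in which 39 members passed the filter on low counts. Col17a1 fell too, with 7.85, 39.3 and 14.7 CPM at day 23, against 75.5, 78.7 and 57.2 CPM at day 8. Its call was lost in the fit of these 2 groups alone (adjusted p 0.0664). In the same comparison 7 of 9 epithelial markers fell and none rose. Their summed levels were 70086 to 221330.0 CPM at day 23 and 45148 to 135055 CPM at day 8. These sums overlapped, and their mean went the other way from the calls, 149582 CPM at day 23 and 97001 CPM at day 8. Of 10 mural markers 5 fell and 1 rose, 3 of 9 blood endothelial markers tested fell, and 2 of 8 fibroblast markers rose. Their part was not tested.

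Ratios between chains of 1 collagen type, taken per kb of exon within each library, differed between groups for several pairs. The ratio of Col1a2 to Col1a1, which assemble together in type I, was 0.309 ± 0.0715 at day 1 and 0.355 ± 0.0249 at day 2, against 0.558 ± 0.0207 at hour 0 (mean ± SD, n = 3 each). No library of day 1 or day 2 reached the hour 0 range. The ratio of Col5a2 to Col5a1 was 2.20 ± 0.171 at hour 3 and 1.76 ± 0.221 at day 1, against 0.963 ± 0.0661 at hour 0, and the lowest hour 3 library was above the highest hour 0 library. The ratio of Col3a1 to Col1a1 was 0.717 ± 0.0761 at hour 3, against 1.14 ± 0.0297 at hour 0. The ratio of Col6a2 to Col6a1 stayed between 0.556 at day 1 and 0.681 at day 2 on average. That of Col6a3 to Col6a1 ranged more widely, 0.461 ± 0.0759 at day 1 and 0.909 ± 0.120 at day 2, against 0.555 ± 0.00828 at hour 0. Every day 2 library was above every hour 0 library for it. For Col4a2 to Col4a1 the values were 0.429 ± 0.0166 at hour 3 and 0.704 ± 0.0834 at day 23, against 0.568 ± 0.0135 at hour 0. The ratio of Col6a6 to Col6a3 was 0.0762 ± 0.00725 at day 1 and 0.575 ± 0.0631 at day 23, against 0.363 ± 0.0473 at hour 0. The hour 3 and day 23 values come from another set of replicate numbers than hour 0, and these ratios were not tested.

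**Figure D4:**
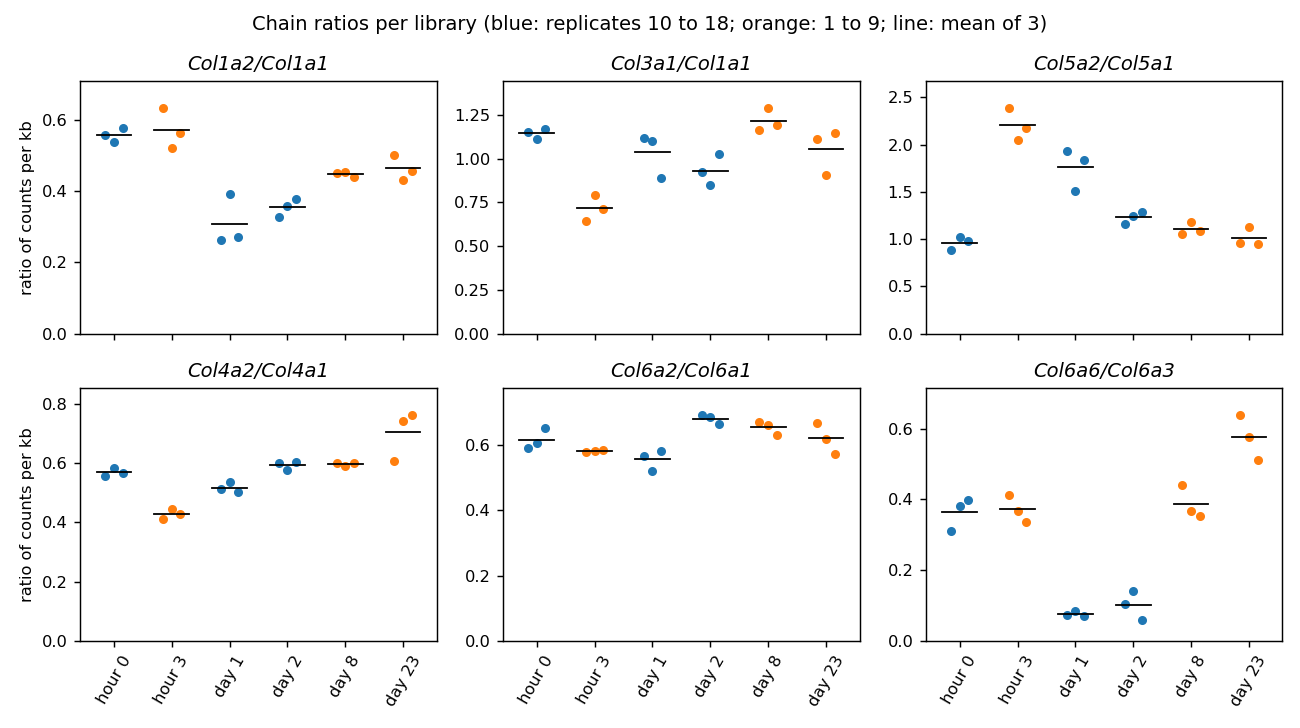
Ratio of counts per kb of exon between pairs of collagen genes in each of the 18 libraries, by time; points are single libraries, the line is the mean of 3, and colour marks the 2 sets of replicate numbers. Col1a2/Col1a1 is low at day 1 and day 2, Col5a2/Col5a1 is high at hour 3, and Col6a6/Col6a3 is low at day 1 and day 2 and high at day 23.

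Several members lie beside each other in the genome. Col4a1 and Col4a2 on chromosome 8 overlap by 22 bases head to head, on opposite strands, and had log2 fold changes of -1.14 and -1.29 at day 1 and -1.59 and -1.52 at day 2. Col4a4 and Col4a3 start 72 bases apart on chromosome 1, with log2 fold changes of -2.27 and -1.61 at day 1 and -2.31 and -2.63 at day 2. At hour 3 under TMM they differed, with 0.07 (not called) and 0.90 (called). Col4a6 and Col4a5 start 1309 bases apart on chromosome X and also differed at hour 3, with -0.45 (not called) and 1.17 (called). At day 1 both of these fell, with -2.76 and -1.80. Col6a6, Col6a5 and Col6a4 lie in that order on chromosome 9, with gaps of 27917 and 28810 bases. Of these 3, Col6a6 and Col6a5 fell at day 1 (-4.37 and -2.51). Col6a4 was not called at day 1, with a log2 fold change of -0.77, and its levels were 2.26 to 6.62 CPM at day 1 and 5.29 to 8.04 CPM at hour 0.

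Some members had few counts. Col10a1, Col11a1, Col19a1, Col25a1 and Col9a1 were under 3 times the rate of sensory receptor genes in at least 1 group. Col10a1 had 0 counts at day 8 and at day 23 and 28 at hour 0, and Col9a1 and Col19a1 had 0 at day 23, so the fitted log2 fold changes of these comparisons are not given. An F test over the 6 groups called 43 of 44 members, against 83.9% of all genes tested, and Col28a1, a basement membrane associated type in peripheral nerve, was the exception (adjusted p 0.544).

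Genes that make, process and bind collagen are given by list, with log2 fold changes against hour 0 unless another time is named. At day 1 all but 3 of 16 basement membrane partners (laminin chains, nidogens, perlecan and others) fell and none rose, with a median log2 fold change of -1.87, where 12.8% of all genes tested fell and 9.67% rose, with a median of -0.41. Lamb1 and Lama2, laminin chains, had -3.67 and -3.64, and Lamc3 had -4.26 at day 2. Of 11 fibril-binding proteoglycans and glycoproteins 8 fell and none rose, with a median of -1.34: Fmod (fibromodulin) had -3.88, Aspn (asporin) -3.65 and Ogn (osteoglycin) -2.83. Of 12 collagen receptors 8 fell and 1 rose, with a median of -1.26, and Itga11, an integrin chain that binds type I collagen, had -3.24. Antxr2 had -3.39, and Antxr1 fell too.

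Lists of enzymes gave more mixed counts. Of 20 genes for intracellular modification, folding and export 5 rose and 2 fell at day 1, with a median of 0.17 beside -0.41 over all genes tested. Colgalt2, which adds galactose to hydroxylysine, was among the falls (-5.41). Plod2, a lysyl hydroxylase, and P3h2, a prolyl 3-hydroxylase, were lower at day 8 than at hour 3 (-2.31 and -1.87). Of 13 genes for processing and cross-linking outside the cell 3 rose and 6 fell at day 1, with a median of -0.34. Loxl4, a lysyl oxidase, rose (3.27) and Pcolce2, which aids removal of the procollagen end, fell (-3.07). At hour 3 Lox, which cross-links collagen, had 6.53 and rose under both scalings. Of 7 collagen-degrading enzymes 2 rose and 3 fell at day 1, with a median of -0.37. Mmp13, a collagenase, had 5.22 at day 2, Fap had -2.55 at day 1, and Mmp9, a gelatinase, had 2.46 at hour 3. Counts for all lists at hour 3 changed with the scaling, as did those of all genes. Under TMM 12 of the 20 intracellular genes rose and 1 fell, where 16.9% of all genes tested rose and 43.1% fell. Under library totals 1 rose and 10 fell, where 5.41% of all genes rose and 70.8% fell.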

How the data were processed

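The values used are raw counts per Ensembl gene, deposited by the authors for each library. The submitters' processing notes name FastQC, STAR, Subread and DESeq2 as tools and mm10 as the build. Versions, strand setting and treatment of multiply mapped reads are not given in the sources used here. Names, positions and exon lengths came from GENCODE M21 on GRCm38, which matched 55141 of 55401 identifiers.

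One edgeR 4.0.16 fit in R 4.3.3 took in the 18 libraries (quasi-likelihood test, filterByExpr with a minimum count of 10 and total of 15, TMM scaling). The filter left 27525 genes, among them all 44 collagens. P-values were Benjamini-Hochberg adjusted within each contrast, with a threshold of 0.05. Shares of counts were compared by exact permutation tests (scipy 1.17.1). The fitting script was tested on simulated data. Alternatives were library totals, DESeq2 size factors, DESeq2 1.42.0, other filters on low counts, subtraction of receptor-gene background, fits of fewer groups, and leaving out each replicate; a fit without the 3 day 2 libraries, and leaving out replicates for the class make-up, were added after seeing the data.

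The members given for every library were picked by a rule. They include, in each class, the 4 with the highest mean level per kb of exon. They also include, for each contrast, the 2 largest rises and 2 largest falls among called members. Such members had to show no overlap between libraries and average at least 10 CPM in the higher group. Library values are not given for every picked member at every contrast. Up to 3 genes per pathway list are named, those called with the largest change over the contrasts. Other members singled out (Col5a1, Col5a3, Col24a1, Col4a5, Col4a6, Col6a4, Col9a1, Col25a1, Col27a1) were chosen after their values were seen. The members, lists and classes were chosen with earlier results of these data known.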

Additional observations from a re-analysis of the deposited data

How the results depend on the processing

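Counts of called collagens kept within 1.5 times their size in most comparisons and settings. The exceptions were 23 calls under library totals at day 23 against hour 0 (15 under TMM), 7 calls in the fit of only the 2 groups at day 23 against day 8 (11 in the fit of all groups), and fits that left out 1 library. Leaving out each replicate gave 13 to 26 calls at day 2 against day 1 (21 in the full fit, 13 without day 2 replicate 18) and 7 to 11 at day 23 against day 8 (7 without day 8 replicate 2). The cause was not tested. Counts that take rises and falls together do not show a change of direction. At hour 3 against hour 0, 18 rose and 10 fell under TMM, and 2 rose and 27 fell under library totals. At day 8 against hour 3, 3 rose and 20 fell under TMM, and 9 rose and 7 fell under library totals. Without the 10 most abundant genes in the denominator, the difference in collagen share of counts was -3.84 percentage points at day 1 minus hour 0 and 0.451 at day 8 minus hour 3, where all counts gave -2.90 and -0.0382. With raw counts in place of counts per kb, basement membrane collagens were 25.8% (hour 0), 36.9% (hour 3), 20.2% (day 1), 13.0% (day 2), 20.4% (day 8) and 20.7% (day 23) of the signal.

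Scaling by library totals alone changed the sign of log2 fold changes called under TMM, library totals or both at hour 3 against hour 0, to Col13a1 -0.17, Col14a1 -0.086, Col15a1 -0.67, Col16a1 -0.32, Col1a1 -0.51, Col1a2 -0.48, Col20a1 -0.80, Col4a3 -0.29, Col4a4 -1.11, Col4a5 -0.010, Col5a1 -0.87, Col5a3 -1.17, Col6a1 -0.37, Col6a2 -0.45, Col6a3 -0.48, Col6a6 -0.43, Col7a1 -0.75, Col8a1 -0.70 and Col8a2 -1.05. Of these, Col6a2 and Col6a3 rose under TMM and fell under library totals (edgeR adjusted p 0.0276 and 0.0427). At day 8 against hour 3 the values became Col16a1 0.19, Col1a2 0.10, Col6a3 0.077 and Col6a6 0.15. Col6a4, with few counts, had log2 fold changes of -5.81 to 2.00 at day 23 against day 8 when each replicate was left out, the lowest without day 23 replicate 7. Of all single-gene values, 4652 kept direction and side of the threshold, 198 lost the threshold with the same sign and 129 gained it. Sign changed in 24 where the value was called before or after, all named above, and in 278 others that were called in neither fit. No paired analysis was possible because the groups share no replicate numbers. Depth limits the low members, of which several lie near the background rate or at 0 counts. P-values rest on 3 mice a group.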
